A study of Mus musculus with 30 samples.

Results

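The 2 mononuclear cell populations of the stroke-injured hemisphere of TREM1 knockout (KO) mice, macrophages and microglia, were compared on 12 of the 30 arrays of the series, 6 of each. The arrays were taken by their titles, which name the genotype and the cell type, and no measured value had a part in the choice. TREM1 is a receptor of myeloid cells that amplifies inflammatory signalling. The mice of both groups were male C57BL/6 of 8 to 10 weeks with the TREM1-/- genotype, and all had the middle cerebral artery occluded for 45 min and reperfused for 48 h before the cells were sorted. Macrophages were gated as CD45Hi, CD11b+ and Ly6G- cells, and microglia as CD45Lo and CD11b+ cells that the labels also describe as Ly6G+. Wild-type (WT) TREM1+/+ mice with the same occlusion gave 3 macrophage and 6 microglia arrays, which served as a second set of the same cell types, and 5 TREM1-/- neutrophil arrays served as a reference for neutrophil RNA. The series holds no sham or uninjured group in the labels used here, so every cell described came from an injured hemisphere. From the labels it is not known which part of Trem1 was deleted, whether the cells of several animals were pooled for an array, or whether the knockout was limited to any cell type. They call the arrays of a group biological replicates, and the p-values measure the spread between these arrays.

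Microglia settle in the brain before birth, renew themselves there, and depend on signalling through the colony-stimulating factor 1 receptor and on transforming growth factor beta. Macrophages with high CD45 in an ischemic brain come largely from blood monocytes, which are made in the bone marrow and leave the blood through the chemokine receptor CCR2. Both are phagocytes with a shared myeloid programme, so the comparison asks how recruited and resident cells differ when they sit in the same injured tissue.

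Expression was read on Affymetrix Clariom HT mouse arrays as 1 intensity for each of 22103 transcript clusters, sets of probes that mostly stand for 1 gene each. Levels below are log2 intensities, differences are macrophages minus microglia in log2 units, and folds are between the geometric means of intensity. A cluster was said to pass, or was called, when its Benjamini-Hochberg adjusted p from limma was under 0.05, with 6 arrays a group. No detection call came with the table, and levels of 2.93 to 5.35, those of the dimmest 25% of clusters, may lie at background, where a fold can understate the difference. In bulk samples fewer cells of a type and less RNA per cell cannot be told apart. Arrays of KO macrophages had a median intensity of 85.1 to 91.1 and those of KO microglia 110 to 116, and the WT arrays split the same way (83.7 to 86 and 107 to 120). Each array's correlation with the rest of its group averaged 0.9859 to 0.9884 in KO macrophages and 0.9816 to 0.9865 in KO microglia.

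Both populations carried the markers of their labels. Of 23 measured genes of recruited monocytes all 23 were higher in KO macrophages, with a median difference of 6.49, 20 of them by 4-fold or more and all 23 without overlap between the groups. Of 24 measured genes of microglial identity 23 were lower in macrophages, with a median of -3.60, 17 by 4-fold or more, and only the pyrimidine nucleotide receptor gene P2ry6 did not pass (0.02). Among all clusters 11.8% were higher and 31.4% lower, with a median of -0.21. By 4-fold or more 2.2% were higher and 3.8% lower, and 7.42% were higher and 17.6% lower without overlap. Each count of list members with the intensities as deposited is to be read beside these shares. Counts under another scaling belong beside those of all 22103 clusters under it. These were 6109 higher and 3213 lower with each array centred on its median, and 4191 and 4063 after quantile normalization. With centring on 14 broadly expressed genes they were 2694 and 5336. The mean level of the monocyte list was 14.24 to 14.76 in macrophages and 7.96 to 9.12 in microglia, and that of the microglial list 9.65 to 10.14 and 13.37 to 14.35. KO neutrophils had 12.57 to 12.91 for the monocyte list and 9.61 to 10.86 for the microglial list. A high monocyte list was therefore not particular to macrophages. Of the sort markers, Ptprc, which encodes CD45, lay between 15.01 and 15.51 in macrophages and between 14.57 and 15.11 in microglia, and Itgam, which encodes CD11b, lay between 15.11 and 15.35 and between 14.48 and 15.16. Since the cells were sorted on these proteins, the 2 genes are given without a test, and Ly6g was not analysed here.

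Trem1 gave signal on arrays labelled knockout. Its level was 12.81 to 14.39 in KO macrophages (median 13.37) and 7.50 to 9.21 in KO microglia (median 8.30). The groups did not overlap, and the difference was 5.12 (SE 0.36, adjusted p = 7.94e-13). In WT cells it was 4.36, and the 2 differences were 0.76 apart (SE 0.56, adjusted p = 1). Signal from probes outside the deletion would remain in a knockout, so these values are no check of the genotype.

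The mean over 20 neutrophil genes was 7.51 to 8.38 in KO macrophages and 6.54 to 8.81 in KO microglia, against 12.21 to 13.31 in KO neutrophils. Of these genes 7 were higher in macrophages, including Mmp8 and the decoy receptor gene Il1r2 (84.3-fold), and 0 lower. KO microglia replicate 2 held the 8.81 and replicate 4 a mean of 7.32. In replicate 2 the calprotectin genes S100a8 and S100a9 stood at 12.04 and 12.88 and the neutrophil granule genes Camp, Ngp and Lcn2 at 12.46, 13.11 and 12.45. The part of this signal in the results was not tested, and counts without these arrays are given where they bear on a result. Of 15 T cell genes 1 was higher, the interleukin-7 receptor gene Il7r (19.6-fold), and 4 lower, with Cd3e, which encodes a chain of the T cell receptor complex, at 5.10 and 5.43. Of 13 natural killer cell genes 2 were higher, with the lectin receptor Klrd1 at 55.6-fold, and 1 lower, and the natural killer receptor gene Ncr1 stood at 4.71 and 4.25. Of 11 B cell genes 3 were lower. Of 12 astrocyte, 13 neuronal and 11 oligodendrocyte genes 1, 1 and 0 were higher and 5, 4 and 6 lower. The means of the neuronal (5.33 to 5.70 and 5.72 to 6.07) and oligodendrocyte lists (5.14 to 5.40 and 5.81 to 6.01) were under 6.69, the median over the mean levels of the clusters, on every array of both groups. The mean over 11 endothelial genes was higher, at 8.12 to 8.38 in KO macrophages and 7.36 to 7.69 in KO microglia, with no overlap. The median difference of these genes was only 0.20, and the largest, 7.84 for Ly6c1, weighs heavily on the mean. In this list 2 genes were higher, the receptor gene Kdr (1.19) and Ly6c1, which may share signal with the monocyte gene Ly6c2, and 2 lower, and the defining genes Cldn5 and Pecam1 stood at 4.67 and 7.07 in macrophages and 5.14 and 6.81 in microglia. Under median centring 6 were higher and 1 lower. Of 12 mural cell and fibroblast genes 3 were higher and 3 lower, with means of 6.72 to 7.14 and 6.45 to 7.33. The part of these cells in the results was not tested. With each array centred on its median the T cell list turned to 4 higher and 0 lower and the astrocyte list to 2 and 1. The B cell list turned to 1 and 1 and the neuronal list to 2 and 2, so the shifts of these lists had no settled direction. The oligodendrocyte list went to 1 higher and 3 lower.

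In all, 9565 of 22103 clusters passed, 43.3%, with 2619 higher (11.8%) and 6946 lower (31.4%) in macrophages. At 4-fold or more, 486 clusters were higher (2.2%) and 840 lower (3.8%), and in 1305 of these 1326 the groups did not overlap. Over all clusters 1640 were higher and 3895 lower without overlap (7.42% and 17.6%). The excess of lower calls moved with the scaling between arrays. Higher calls were 27.4% of calls with the intensities as deposited, 50.8% after quantile normalization (4191 higher, 4063 lower), 65.5% with each array centred on its median (6109 and 3213) and 33.5% with each array centred on 14 broadly expressed genes (2694 and 5336). Of those 14 genes 1 was itself higher and 4 lower in macrophages as deposited, with differences from -1.12 to 0.76. Centring on the array median moved the median of all clusters from -0.21 to 0.16. Differences of 4-fold or more depended less on the scaling, with 486 to 629 higher and 629 to 840 lower over the 4 scalings. The half-width of the 95% confidence interval of a difference had a median of 0.40.

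The 12 genes highest in macrophages included the MHC class II beta chain genes H2-Eb1 and H2-Ab1 and the monocyte genes Plac8, Ccr2 and Ly6c2. H2-Eb1, the gene for the beta chain of the MHC class II molecule I-E, was between 15.79 and 16.50 in macrophages (median 16.23) and between 5.92 and 7.24 in microglia (median 6.10), the widest gap among the genes named by the rule. Its RNA alone does not show that the I-E molecule was made. H2-Eb1 was 914-fold higher in macrophages in the means (difference 9.84, SE 0.50, adjusted p = 8.94e-16). Plac8, a small cysteine-rich protein of myeloid cells, lay at 15.26 to 16.26 (median 15.61) against 5.46 to 6.83 (median 5.97), a difference of 9.56 (SE 0.41, adjusted p = 1.65e-17). Chil3, the chitinase-like protein Ym1, lay at 15.07 to 15.89 (median 15.66) against 4.50 to 8.17 (median 6.93) and differed by 9.08 (SE 0.48, adjusted p = 1.97e-15). Its microglia arrays were spread over several log2 units, while its macrophage arrays stayed within 1. Atp8b4, a phospholipid-transporting ATPase, was 675-fold higher (adjusted p = 6.52e-21) and the phospholipase B-like gene Plbd1 530-fold. The others of the 12 were H2-Ab1, the beta chain of I-A (514-fold), Ccr2, Sirpb1c of the signal-regulatory protein family (439-fold), S100a4, a calcium-binding protein (263-fold), Anxa1, an annexin that limits leukocyte traffic (253-fold), and the Ly6C genes Ly6c2 (401-fold) and Ly6c1 (229-fold). Ly6c1 and Ly6c2 are near-identical copies, and members of the MHC and Sirpb families are close to each other, so probes may share signal between them. These 12, like the 12 below for microglia, were taken only from called genes whose groups did not overlap. Their lack of overlap was therefore set by the rule.

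The 12 genes highest in microglia included the microglial markers Slc2a5 and Siglech, the mitotic kinase Cdk1 and the growth factor Csf1. Nav3, a neuron navigator protein, lay at 5.02 to 5.63 in macrophages (median 5.49) and at 13.33 to 14.13 in microglia (median 13.70). Microglia were 317-fold higher (difference -8.31, SE 0.31, adjusted p = 8.78e-19). Slc2a5, the fructose transporter used as a microglial marker, lay at 4.85 to 5.42 (median 5.07) against 12.32 to 14.78 (median 13.08), a difference of -8.28 (SE 0.38, adjusted p = 7.06e-17). Siglech, a sialic acid-binding lectin, lay at 6.71 to 7.50 (median 7.20) against 13.98 to 15.67 (median 14.52), with microglia 189-fold higher. Csf1, the growth factor on which microglia and macrophages depend, lay at 6.99 to 9.40 (median 7.45) against 14.18 to 14.88 (median 14.72), a difference of -6.68 (SE 0.36, adjusted p = 2.39e-15). Its receptor gene Csf1r differed by less, -1.22, so microglia were 2.34-fold higher. The others of the 12 were the secreted protease Adamts1 (203-fold higher in microglia), the sarcoglycan Sgce (136-fold), the mitotic kinase Cdk1 (132-fold), the myelin gene Pmp22 (127-fold), the adhesion receptor Adgrg1 (122-fold), the cholesterol 25-hydroxylase Ch25h (105-fold), the galactosaminyltransferase B3galnt1 (84.7-fold) and Tpbgl (80.2-fold). In macrophages the Slc2a5 median lay within the dimmest 25% of clusters and that of Nav3 just above them.

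**Figure D1:**
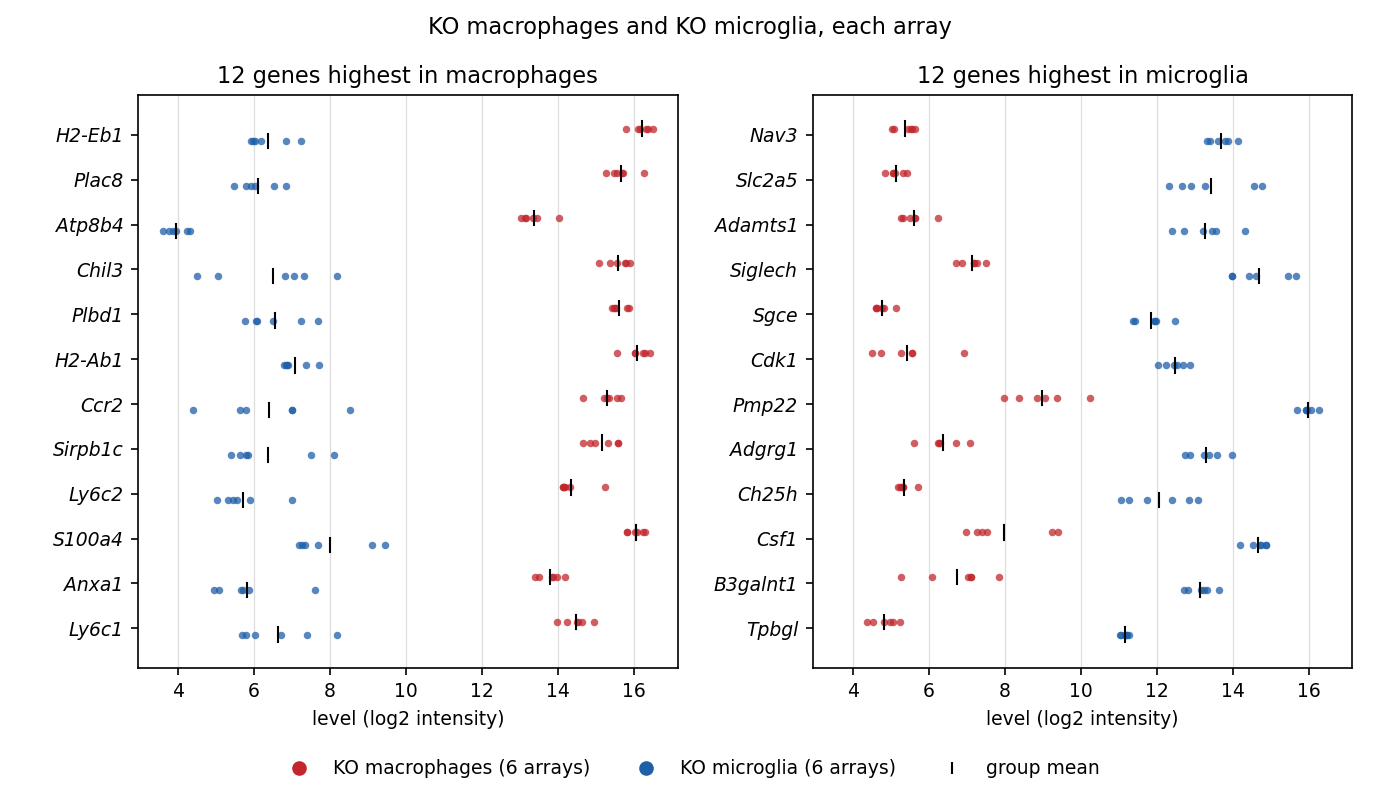
Log2 intensity on each KO macrophage and KO microglia array (points) for the 12 genes with the highest positive and the 12 with the lowest negative difference. Each gene's 2 groups of 6 arrays are apart, as the rule for these genes required. H2-Eb1 is at one end, at 15.79 to 16.50 in macrophages and 5.92 to 7.24 in microglia. Nav3 is at the other, at 5.02 to 5.63 and 13.33 to 14.13.

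The transcription factors that set cell identity split both ways. Of 39 measured lineage factors 17 were higher and 11 lower in macrophages. Sall1, the factor that keeps microglia from taking on a macrophage state, lay at 5.48 to 5.67 in macrophages (median 5.51) and at 11.06 to 12.49 in microglia (median 11.39). Microglia were 63.8-fold higher (difference -5.99, SE 0.24, adjusted p = 3.3e-18), with no overlap. Its relative Sall3 differed by -5.33 (adjusted p = 2.59e-18). In the other direction Runx3, a factor of leukocytes, lay at 11.66 to 12.85 (median 12.13) against 4.71 to 6.29 (median 5.38), 106-fold higher in macrophages (adjusted p = 5.18e-16). Nr1h3, the liver X receptor alpha that senses oxysterols, was 56.3-fold higher in macrophages. Bhlhe40 and Bhlhe41, related repressors chosen after their values were seen, were opposed, with Bhlhe40 14.6-fold higher and Bhlhe41 5.33-fold lower in macrophages.

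Ccr2 and Cx3cr1, the chemokine receptors that mark recruited and resident cells, were opposed on every array. Ccr2 lay at 14.66 to 15.64 in macrophages (median 15.32) and at 4.40 to 8.52 in microglia (median 6.39). The difference was 8.89 (SE 0.52, adjusted p = 1.76e-14), and the microglia arrays spread from 4.40 in replicate 3 to 8.52 in replicate 5. Cx3cr1, the receptor for the neuronal chemokine fractalkine, lay at 9.48 to 10.32 (median 9.76) against 13.03 to 14.16 (median 13.36), 12.2-fold lower in macrophages (difference -3.60, SE 0.35, adjusted p = 8.38e-10). The purine receptor P2ry12, which guides microglial processes to sites of injury, lay at 11.98 to 12.75 against 15.21 to 16.41 and was 11.7-fold lower in macrophages. Its macrophage level was still well above the median of all cluster means. Among 13 purinergic genes 3 were higher and 5 lower (4 and 5 under median centring). The lower ones included P2ry13 (-3.46), P2rx1 (-2.45) and P2rx7 (-2.10), the ATP-gated channel linked to interleukin-1 release. Of 19 receptors for chemokines and other attractants 7 were higher and 6 lower, against 11.8% and 31.4% of all clusters. The lower share was close to that of all clusters, and median centring gave 8 higher and 2 lower. Cxcr4, the receptor that retains leukocytes in the marrow, lay at 14.96 to 15.69 against 7.71 to 9.62 (79.2-fold higher in macrophages, adjusted p = 1.13e-18), and the leukotriene receptor Ltb4r1 and Ccr1 were 72.7-fold and 19-fold higher. Among 25 adhesion genes 10 were higher and 9 lower (11 and 5 under median centring). Itgal, Itga4, Cd44 and Jaml, which serve leukocyte adhesion and passage through endothelium, were higher by 5.74, 4.85, 4.89 and 4.81.

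Genes of antigen presentation through MHC class II were mostly higher in macrophages. Of 15 measured genes 10 were higher and 1 lower in KO macrophages, 6 of them higher by 4-fold or more. H2-Aa, the alpha chain of I-A, lay at 13.64 to 14.76 in macrophages (median 14.30) and at 6.80 to 7.97 in microglia (median 7.34). The groups were far apart, at 122-fold (difference 6.93, SE 0.28, adjusted p = 5.73e-18). H2-Ab1 lay at 15.56 to 16.41 against 6.79 to 7.71, a difference of 9.01 (SE 0.42, adjusted p = 1.15e-16). Ciita, the transactivator that switches the class II genes on, lay at 7.98 to 8.45 (median 8.27) against 4.98 to 5.54 (median 5.32), 7.56-fold higher (adjusted p = 2.91e-14). The list also holds co-stimulatory genes, of which Cd80 was higher (2.94) and Cd86 was not called (-0.66, adjusted p = 0.12). H2-Ob, part of a brake on peptide loading, was the lower one (-0.91), and its call ended under quantile normalization and median centring, with 11 and 12 genes then higher and 0 lower. Dendritic cells also carry these genes and can share the macrophage gate. The mean of 18 dendritic cell genes was 6.88 to 7.35 in macrophages and 5.94 to 6.33 in microglia. Of these genes 10 were higher, including Cd209a (71.3-fold), Cd24a (27.4-fold), Kmo (8.39-fold) and the homing receptor Ccr7 (3.56-fold). Another 5 were lower, 2 of them by 4-fold or more, with a lowest difference of -4.56. The defining genes Zbtb46 and Xcr1 stood at 4.59 and 5.25 in macrophages and 4.96 and 5.45 in microglia. Their part in the class II result was not tested.

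The promoters of H2-Eb1 and H2-Aa are shown because class II promoters are known to carry an inverted CCAAT box, the Y box, close to the start. They are the RefSeq sequence of GRCm38.p6 from 250 bases before the start to 50 after it, 5′ to 3′ on the gene's strand, with CCAAT or its reverse complement ATTGG in capitals.
H2-Eb1: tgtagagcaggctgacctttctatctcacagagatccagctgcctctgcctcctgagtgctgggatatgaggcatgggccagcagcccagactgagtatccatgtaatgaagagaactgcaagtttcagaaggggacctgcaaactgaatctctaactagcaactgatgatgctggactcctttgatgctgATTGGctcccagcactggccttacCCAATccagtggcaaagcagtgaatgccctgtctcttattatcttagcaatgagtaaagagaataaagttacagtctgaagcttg
H2-Aa: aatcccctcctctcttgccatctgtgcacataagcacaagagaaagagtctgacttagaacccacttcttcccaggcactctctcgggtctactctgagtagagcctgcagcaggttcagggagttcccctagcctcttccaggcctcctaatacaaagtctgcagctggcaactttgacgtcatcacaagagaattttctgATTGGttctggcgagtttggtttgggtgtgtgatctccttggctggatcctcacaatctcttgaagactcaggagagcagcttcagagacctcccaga
H2-Eb1 (chr17:34305617-34305916, + strand) held ATTGG 59 and CCAAT 35 bases before the start, and H2-Aa (chr17:34287774-34288073, - strand) held ATTGG 48 bases before it. CCAAT on either strand was in 7 of the 11 promoters found for the class II presentation list (63.6%), which is not limited to class II chains. It was in 6088 of 15681 promoters of all measured genes (38.8%). A match in these letters is a description of the sequence.

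Cell division genes were higher in microglia. All 26 measured genes of the cell division list were lower in KO macrophages, with a median of -4.01, where 31.4% of all clusters were lower. Of these genes 22 were lower by 4-fold or more, against 3.8% of all clusters. In 25 the groups did not overlap, against 17.6% of all clusters lower without overlap. Mki67, the proliferation marker Ki-67, lay at 7.94 to 9.36 in macrophages (median 8.87) and at 13.52 to 15.28 in microglia (median 14.87). The lowest microglia array was replicate 2, the array with neutrophil signal, and it still lay at 13.52 against 9.36 in the highest macrophage array. The difference was -5.93 (SE 0.35, adjusted p = 2.74e-14), 60.9-fold higher in microglia. Cdk1, the kinase that drives entry into mitosis, lay at 4.50 to 6.93 (median 5.42) against 12.04 to 12.88 (median 12.48), a difference of -7.04 (SE 0.42, adjusted p = 2.55e-14). Top2a, the topoisomerase that untangles sister chromatids, lay at 5.09 to 6.21 (median 5.68) against 11.07 to 11.75 (median 11.56), a difference of -5.77 (SE 0.37, adjusted p = 1.02e-13). No arrays overlapped in either gene. Tpx2, a spindle assembly factor, was 23.1-fold higher in microglia. The checkpoint kinase Bub1b differed least, by -1.12 (adjusted p = 0.0193), was the only one whose groups overlapped, and did not pass under quantile normalization, under median centring or without KO microglia replicates 2 and 4. The other 25 were lower under each of those settings. The list mean was 7.02 to 7.48 on the KO macrophage arrays and 10.75 to 11.08 on the KO microglia arrays. KO neutrophils, which do not divide, had 7.14 to 7.78, a range that overlaps that of macrophages. WT macrophages reached 7.52 at most, and WT microglia had 9.62 to 11.38.

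**Figure D2:**
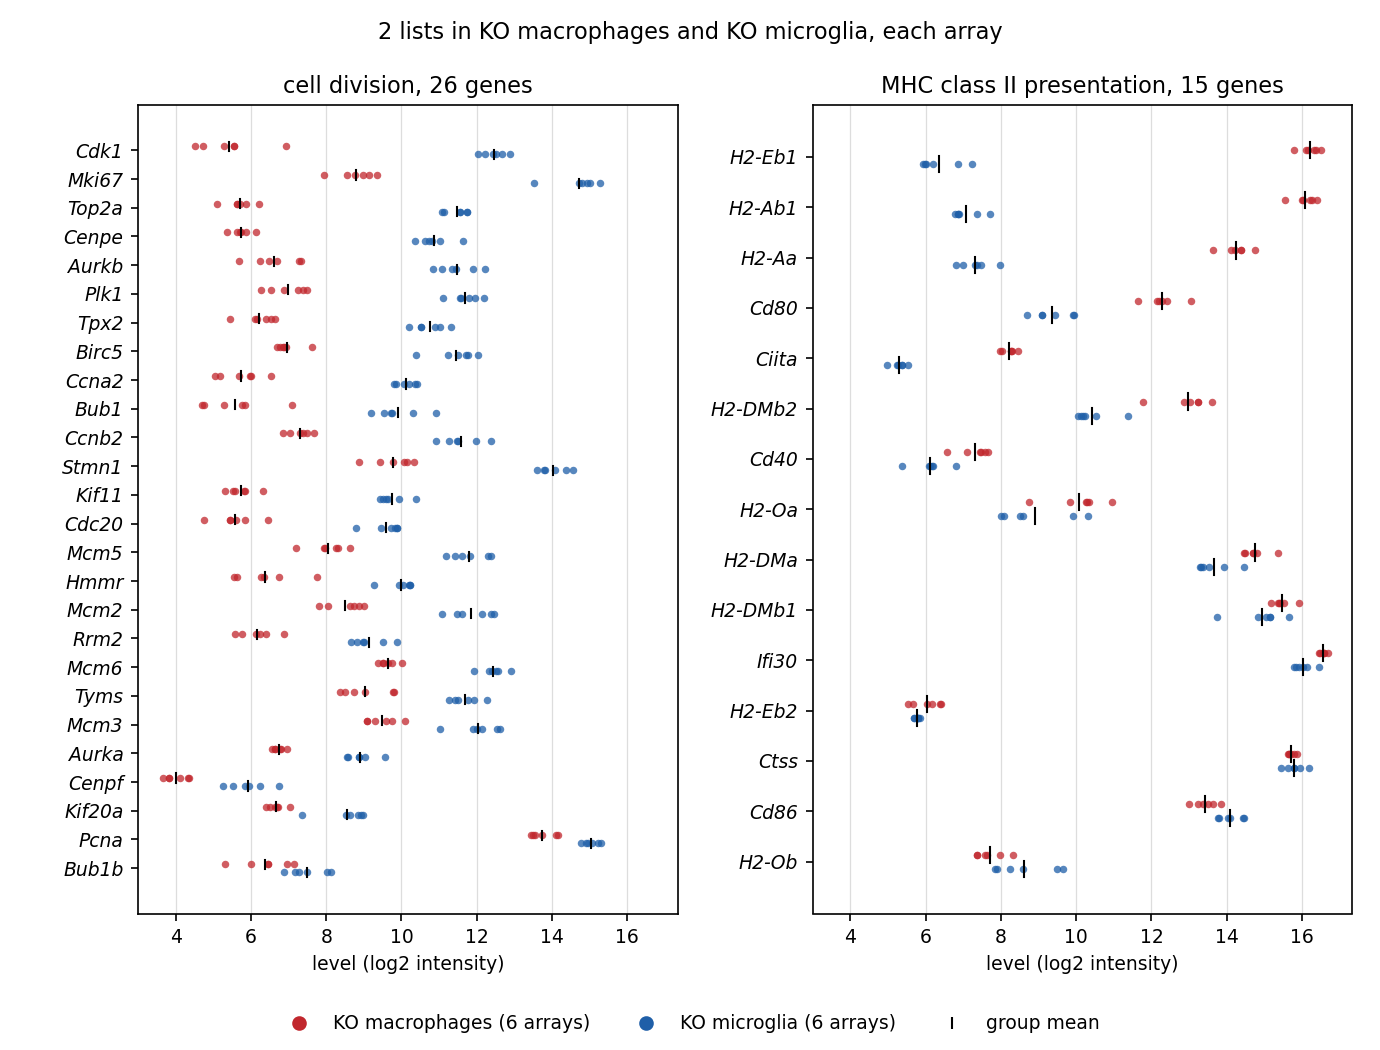
Log2 intensity on each KO array (red points for macrophages, blue for microglia, ticks for group means) for the 26 genes of cell division and the 15 of MHC class II presentation. Cell division genes sit higher on microglia arrays, as for Mki67 at 13.52 to 15.28 against 7.94 to 9.36 in macrophages, and class II genes such as H2-Aa sit higher on macrophage arrays.

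The promoters of Cdk1 and Top2a are shown because genes of late cell cycle are known for repeated CCAAT boxes and a cell cycle homology region near the start. CCAAT or ATTGG and TTTGAA or its reverse complement TTCAAA are in capitals.
Cdk1: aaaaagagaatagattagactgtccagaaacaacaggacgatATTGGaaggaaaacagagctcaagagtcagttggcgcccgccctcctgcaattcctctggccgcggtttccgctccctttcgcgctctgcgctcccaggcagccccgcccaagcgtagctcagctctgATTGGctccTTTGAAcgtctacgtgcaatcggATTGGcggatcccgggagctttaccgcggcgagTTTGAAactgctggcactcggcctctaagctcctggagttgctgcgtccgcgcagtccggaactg
Top2a: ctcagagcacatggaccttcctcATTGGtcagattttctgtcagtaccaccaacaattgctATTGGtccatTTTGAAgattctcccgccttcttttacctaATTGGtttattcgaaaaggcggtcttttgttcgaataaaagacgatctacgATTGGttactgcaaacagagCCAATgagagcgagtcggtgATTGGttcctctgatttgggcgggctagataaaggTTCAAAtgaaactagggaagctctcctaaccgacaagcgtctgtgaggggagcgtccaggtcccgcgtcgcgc
Cdk1 (chr10:69352863-69353162, - strand) held 3 matches to CCAAT, at 208, 80 and 48 bases before the start, and TTTGAA at 71 and 15. Top2a (chr11:99024140-99024439, - strand) held 6 matches to CCAAT and 2 to TTTGAA. Matches to CCAAT were in 19 of 21 promoters of the cell division list (90.5%), in 277 of 598 of genes lower in macrophages by 4-fold or more (46.3%), in 121 of 348 of genes higher by as much (34.8%) and in 38.8% of all. No CCAAT match overlapped a TTTGAA match in either promoter. TTTGAA, searched on both strands, was in 12 of the 21 (57.1%), in 20.6% of the lower, 12.6% of the higher and 15.8% of all.

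Interferon-response genes were mostly higher in macrophages. Of 23 measured genes 16 were higher and 2 lower, 7 higher by 4-fold or more, with a median of 1.22. Oas1a, a sensor enzyme that activates RNase L on viral RNA, lay at 10.97 to 11.76 in macrophages (median 11.41) and at 7.89 to 8.60 in microglia (median 8.24). The macrophage arrays were all higher, by 9.15-fold (difference 3.19, SE 0.26, adjusted p = 1.69e-11). Oas2 and Oas3 of the same family were 13.2-fold and 10.3-fold higher and Ifitm3, a membrane protein that blocks viral fusion, 11.1-fold. Both lower calls ended under quantile normalization and under median centring, where 17 genes were higher and 0 lower. The promoters of Oas1a and Oas3 are shown for the interferon-stimulated response element, here GAAA, any 2 bases and GAAA again, in capitals.
Oas1a: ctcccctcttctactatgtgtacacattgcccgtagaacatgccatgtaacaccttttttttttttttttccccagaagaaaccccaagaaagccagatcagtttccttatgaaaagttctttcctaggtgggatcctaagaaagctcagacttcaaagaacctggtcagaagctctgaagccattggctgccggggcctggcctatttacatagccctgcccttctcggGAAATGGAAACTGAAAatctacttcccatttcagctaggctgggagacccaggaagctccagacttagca
Oas3: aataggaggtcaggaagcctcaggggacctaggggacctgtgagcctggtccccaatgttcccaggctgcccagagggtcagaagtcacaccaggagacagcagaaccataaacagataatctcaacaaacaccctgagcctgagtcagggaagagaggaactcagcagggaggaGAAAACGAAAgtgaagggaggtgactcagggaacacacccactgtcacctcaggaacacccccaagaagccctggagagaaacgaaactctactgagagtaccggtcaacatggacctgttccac
Oas1a (chr5:120907476-120907775, - strand) held 2 overlapping matches, 20 and 14 bases before the start, and Oas3 (chr5:120777610-120777909, - strand) 1 match at 75. Searched on both strands, the motif was in 11 of 16 promoters of the interferon list (68.8%), in 31 of 348 of genes higher in macrophages by 4-fold or more (8.91%), in 11 of 598 of the lower (1.84%) and in 535 of 15681 of all (3.41%). The PU.1 core GAGGAA, a site of the factor that both cell types depend on, was in 32.5% of the higher, 28.6% of the lower and 27.2% of all promoters.

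Genes of inflammatory mediators were called in both directions. Of 21 inflammatory cytokines 6 were higher and 8 lower in macrophages, and of 22 chemokines 11 were higher and 6 lower, against 11.8% and 31.4% of all clusters. The balance turned with the scaling, to 10 higher and 6 lower cytokines after quantile normalization and 11 and 5 under median centring, where chemokines were 14 and 6. Il1b, the secreted interleukin-1 beta, lay at 14.58 to 15.33 in macrophages (median 15.24) and at 7.89 to 10.21 in microglia (median 9.12), 59.4-fold higher in macrophages (difference 5.89, SE 0.36, adjusted p = 5.89e-14). Il1a, the cell-associated form, which signals through the same receptor, lay at 7.80 to 10.61 (median 8.30) against 13.12 to 14.86 (median 13.88) and was 41.8-fold lower in macrophages (difference -5.38, SE 0.51, adjusted p = 6.27e-10). Neither gene overlapped between the groups, and macrophage replicate 3, at 10.61, was the macrophage array with most Il1a. The receptor antagonist Il1rn was 9.87-fold higher in macrophages. Among chemokines Ccl12, Ccl4 and Ccl3, which attract monocytes, were 28.8-fold, 15.5-fold and 8.66-fold higher in microglia, and Ccl6 was 7.47-fold higher in macrophages. Cxcl2, a neutrophil attractant, was higher in macrophages by 4.57, with the microglia arrays among the most spread of any gene (SD 2.17). Tnf lay at 8.57 to 12.94 in macrophages and 11.29 to 12.56 in microglia, and its difference of -1.59 (adjusted p = 0.0246) did not pass under median centring or without any 1 of KO macrophage replicates 1, 2 and 6 or KO microglia replicates 3 and 5 (adjusted p = 0.0514 to 0.0865). Of 16 NF-kB subunits and feedback genes 9 were higher, among them Tnfaip2 (3.96), Traf1 (3.58), Nfkb2 (2.61) and Bcl3 (2.24), and 1 was lower.

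**Figure D3:**
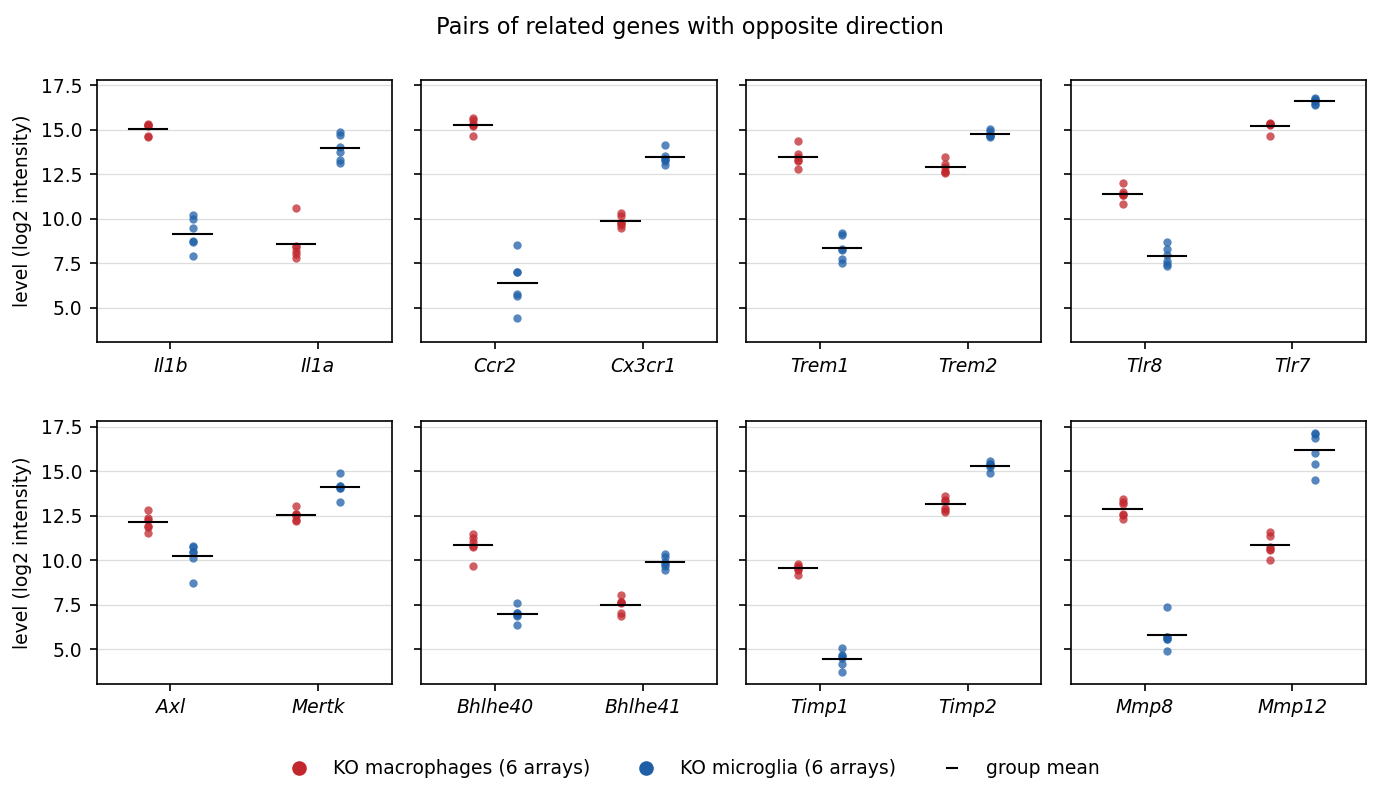
Log2 intensity on each KO array (points) for 8 pairs of related genes, chosen after their values were seen. In each pair one gene was higher in macrophages and the other in microglia, as for Il1b (14.58 to 15.33 against 7.89 to 10.21) and Il1a (7.80 to 10.61 against 13.12 to 14.86), and intensities are to be compared within a gene only.

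Of 20 genes of TREM and ITAM receptors and adaptors 10 were higher and 2 lower in macrophages (14 and 1 under median centring). Clec4e, the lectin Mincle that senses dying cells, was 118-fold higher, its partner Clec4d 19.6-fold and the inhibitory receptor Pirb 17.9-fold, although Clec4 and Pir genes have close copies. Trem2, the lipid-sensing receptor that neighbours Trem1 and is known for its role in microglia, lay at 12.57 to 13.47 (median 12.81) against 14.61 to 15.06 (median 14.71) and was 3.71-fold lower in macrophages (difference -1.89, SE 0.29, adjusted p = 5.01e-06). Tyrobp, the adaptor DAP12 that both TREM receptors signal through, stood at 16.38 and 16.38, with a difference of -0.00 (95% confidence interval -0.21 to 0.21), and turned to 0.36 (adjusted p = 0.00954) with each array centred on its median. Among 18 Toll-like receptors and co-factors 4 were higher and 4 lower. Tlr3, the endosomal receptor for double-stranded RNA, was 20.2-fold higher in microglia, while Tlr8 and the flagellin receptor Tlr5 were 11.4-fold and 12.2-fold higher in macrophages. Tlr7, which lies beside Tlr8 and like it reads single-stranded RNA, was 2.61-fold higher in microglia. Of 15 complement genes 3 were higher and 6 lower. Properdin, Cfp, which stabilises the alternative pathway convertase, was 113-fold higher and factor B, Cfb, differed by 3.71, while the classical pathway genes C1qc (-2.84, adjusted p = 1.05e-06), C1qb (-2.20), C1qa (-1.93) and C4b (-1.26) were lower in macrophages. Among 5 Fc gamma receptor genes Fcgr2b, which is inhibitory, was higher (0.69), the neonatal receptor Fcgrt was lower (-2.08), and Fcgr3 (-0.42) did not pass under median centring or centring on the broadly expressed genes.

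Of 21 phagocytosis genes 4 were higher and 7 lower, a lower share close to the 31.4% of all clusters, and median centring turned the count to 7 higher and 3 lower. Gas6 and Pros1, the soluble bridges between dying cells and TAM receptors, were 16.9-fold and 19.3-fold higher in microglia (adjusted p = 5.38e-08 and 4.69e-11). Of the receptors, Mertk was 2.95-fold lower in macrophages (difference -1.56, SE 0.31, adjusted p = 0.000169) and Axl 3.75-fold higher (difference 1.91, SE 0.37, adjusted p = 0.000133). Among 15 measured genes described in disease-associated microglia 5 were higher and 8 lower, with the glycoprotein gene Gpnmb 39.5-fold higher in macrophages and the cystatin Cst7 26.9-fold and the lipase Lpl (-2.31) higher in microglia. Of 26 lysosomal genes 10 were lower, including the cathepsins Ctsf (16.7-fold) and Ctsl (-2.02), and 2 higher, although median centring turned this to 5 lower and 9 higher. Fabp4, a fatty acid carrier, was 21.5-fold higher in macrophages, and of 20 lipid genes 10 were higher and 6 lower.

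Of 21 growth and repair factors 3 were higher and 11 lower in macrophages, and 7 and 5 with median centring. Igf1, a growth factor for neurons and glia, was 20-fold higher in microglia (adjusted p = 7.75e-07), and Vegfa, which drives vessel growth and leak, lay at 12.82 to 13.92 in macrophages and 9.36 to 10.77 in microglia, 9.5-fold higher in macrophages. Of 24 matrix proteases and inhibitors 9 were higher and 6 lower. The collagenase Mmp8 was 136-fold higher in macrophages, where KO microglia replicate 2 stood at 7.37 against 4.91 to 5.71 on the other microglia arrays, and the matrix glycoprotein Thbs1 was 117-fold higher. The macrophage elastase Mmp12 was 40.6-fold higher in microglia despite its name (difference -5.34, SE 0.76, adjusted p = 1.16e-06). Of the inhibitors Timp1 was 33.8-fold higher and Timp2 4.52-fold lower in macrophages. In the transforming growth factor beta pathway 3 of 20 genes were higher and 6 lower, shares close to those of all clusters (11.8% and 31.4%), and median centring gave 5 and 4, with the receptors Tgfbr1 (-1.53), Tgfbr2 (-1.78) and Eng (-3.00) among the lower as deposited.

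Genes of arginine, heme and iron handling were called in both directions, with 6 of 21 higher and 7 lower in macrophages (9 and 6 under median centring), against 11.8% and 31.4% of all clusters. Arg1, arginase 1, which turns arginine into ornithine, lay at 15.83 to 16.18 in macrophages (median 15.96) and at 7.11 to 10.94 in microglia (median 7.92). The 6 macrophage arrays lay close together, and among microglia replicates 5 and 6, at 10.94 and 10.12, lay above the others (7.11 to 8.38). The difference was 7.42 (SE 0.60, adjusted p = 1.86e-11), and its mitochondrial relative Arg2 was 16-fold higher. The arginine transporter Slc7a1 (-1.93) and the iron exporter Slc40a1 (-2.27) were lower in macrophages. Genes of glycolysis and the hypoxia response were mostly higher in macrophages, with 11 of 21 higher and 2 lower, including the phosphofructokinase Pfkp (55.8-fold), the hypoxia gene Ndrg1 (36.8-fold), Pgam1 (1.62) and the oxygen sensor Egln3 (2.30). Of 33 genes of the respiratory chain and ATP synthase 3 were higher and 2 lower, and of 30 ribosomal protein genes 3 were higher and 0 lower, which became 12 and 0 and 21 and 0 under median centring. Among 18 genes of the NADPH oxidase and peroxide handling 6 were higher, including Cybb (2.09) and Ncf4 (1.73) of the oxidase, and 1 lower. Of 17 ion channel genes 2 were higher, with the calcium-activated potassium channel Kcnn4 at 86.1-fold, and 8 lower, with Kcnd1 at 15-fold and Cacna1d at -2.93. The border-associated macrophage list had 10 of 15 genes higher, led by Clec4n (142-fold), F13a1 (119-fold) and Ms4a7 (4.89), and 2 lower, while the defining gene Lyve1 differed by 0.01 and Cd163 by 1.19.

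**Figure D4:**
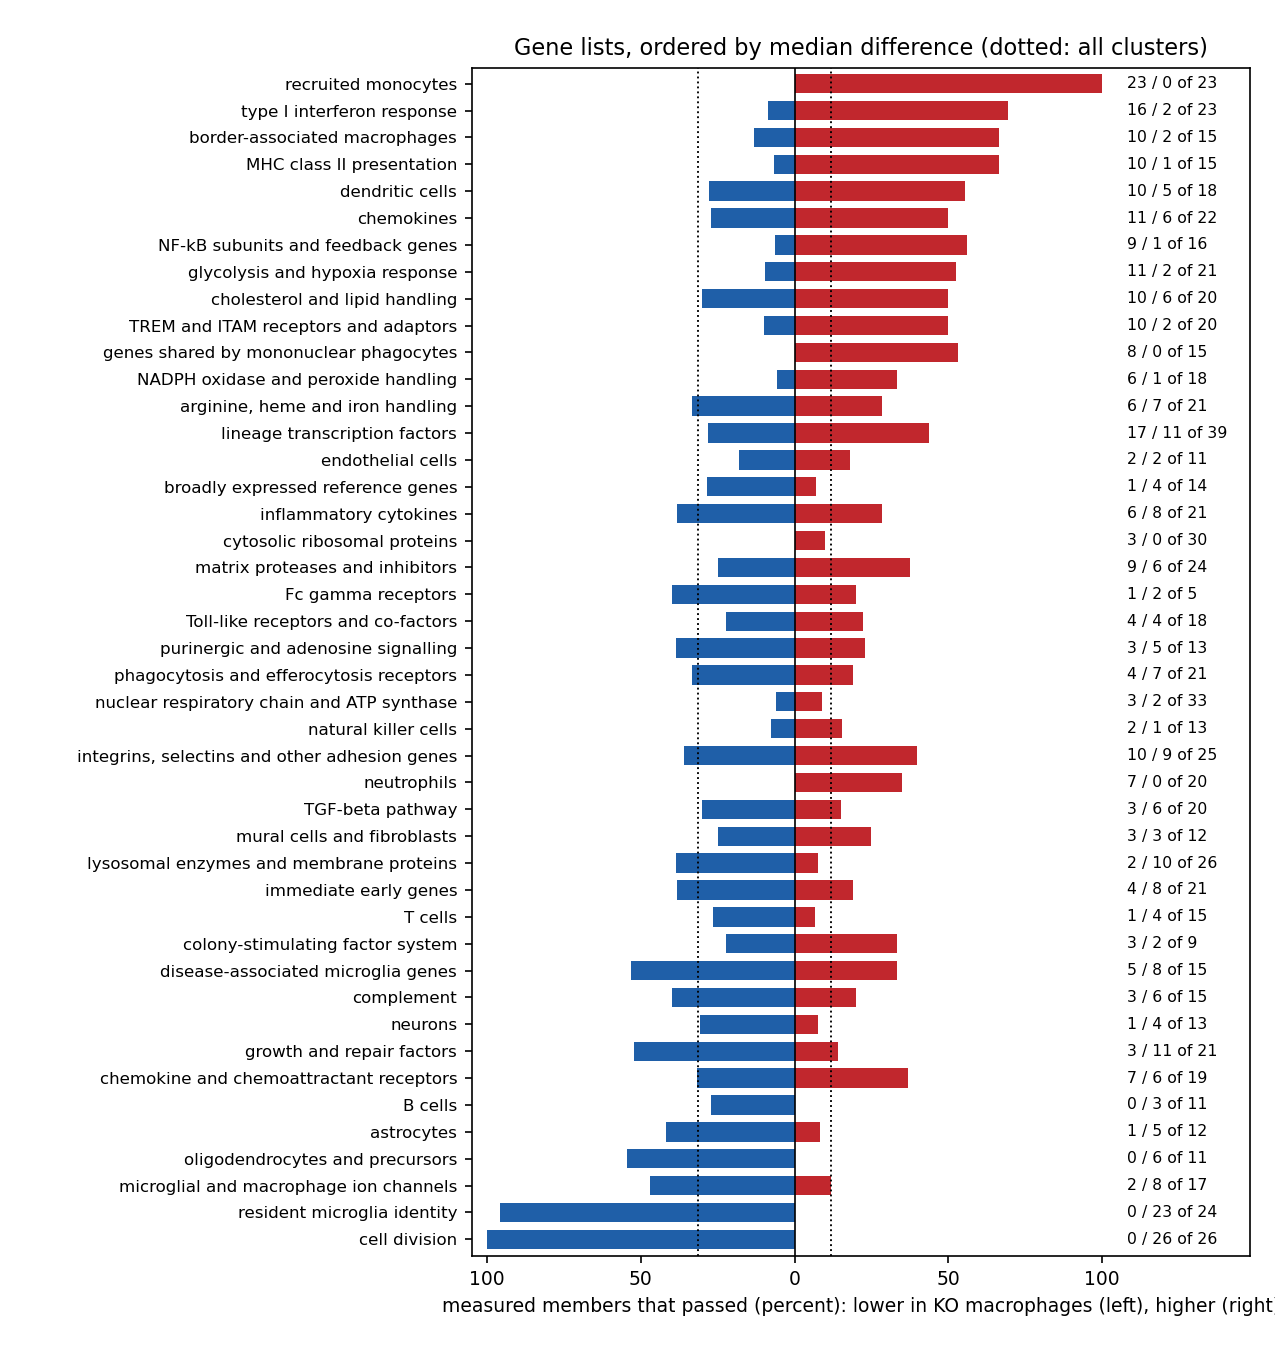
Percent of the measured genes of each of 44 gene lists that were higher (right, red) and lower (left, blue) in KO macrophages than in KO microglia, with dotted lines at the share of all clusters, 11.8% and 31.4%. Recruited monocyte genes (23 of 23 higher) and cell division genes (26 of 26 lower) mark the ends, and most other lists have members on both sides.

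Some abundant genes did not separate the populations. Among clusters with both KO means at or above the 90th percentile of cluster means, 11.97, the 10 with the smallest difference were Tyrobp, the respiratory chain gene Uqcrc1, the ribosomal pseudogene Rpl31-ps12, Tcf25, Larp4, Drg1, Selenot, Wbp1l, Tmem165 and Mfsd1, each at -0.00. Wbp1l had the interval -0.32 to 0.32 and Uqcrc1 -0.66 to 0.66, and the value 0 holds for the deposited scaling only. Of 15 genes shared by mononuclear phagocytes 8 were higher and 0 lower in macrophages, with a median of 0.43.

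The median SD of a cluster over 6 arrays was 0.28 in KO macrophages and 0.30 in KO microglia. In macrophages the most variable of the brighter genes were the early growth response gene Egr1 (SD 1.69), the chemokine Ccl8 (1.64), S100a8 (1.61), Tnf (1.59), Cdr1 (1.52) and Phka2 (1.41). Egr1 lay at 10.43 to 14.86, with replicate 3 at 14.86. In microglia they were S100a8 (2.75), Camp (2.73), Ngp (2.70), Lcn2 (2.59) and S100a9 (2.30), all highest in replicate 2, and Cxcl2 (2.17). S100a8 passed at 2.18 (adjusted p = 0.0334), but its groups overlapped, and the call ended with the fit on only the 12 arrays (adjusted p = 0.102), with the replicate number as a block (0.153) and without microglia replicate 5 (1.43, 0.129), among other single arrays. Of 21 immediate early genes 4 were higher, including Fosl2 (3.10) and Nr4a1 (2.91), and 8 lower, including Egr3 (-2.27) and Jund (-1.49), and the early gene mean overlapped between the groups (10.15 to 11.36 and 10.61 to 11.61).

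The same comparison in WT mice gave the same direction for every cluster called at 4-fold or more in KO. Its group means came from other arrays, while the estimate of the spread was shared by all 30 arrays. Of 22103 clusters 8285 passed in WT (37.5%; 9.62% higher and 27.9% lower in macrophages), with 3 macrophage and 6 microglia arrays, and 6790 passed in both genotypes in the same direction, 71% of the KO calls and 82% of the WT calls, with 1 in opposite directions. All 1326 clusters that differed by 4-fold or more in KO had the same sign in WT, 1319 passed there (99.5%), and 1173 also differed by 4-fold or more, 88.5% of the KO and 87.5% of the 1341 WT clusters (524 higher, 2.37% of all, and 817 lower, 3.7%). The WT difference was 10.39 for H2-Eb1, 10.54 for Plac8, -8.03 for Nav3, -5.94 for Cdk1 and -4.30 for Il1a. All 26 cell division genes were lower in WT macrophages too, with a median of -3.53, and the recruited monocyte (22 of 23 called) and microglial (23 of 24) lists had medians of 6.91 and -3.96. When the 2 differences were compared with each other, 0 clusters passed (0%) by limma, and 761 had an unadjusted p under 0.05. The 4 genes with the smallest p were the adaptor Grap2 (1.09 in KO and 2.41 in WT, adjusted p = 0.555), the nucleotidase Entpd6 (-1.87 and -0.56), the synaptic adhesion gene Lrrc4 (-3.32 and -4.59) and the defensin Defa22 (-0.05 and -1.08). A p that misses the threshold does not show that the differences were equal, and for Cdk1 the KO difference minus the WT difference was -1.10 (SE 0.66).

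**Figure D5:**
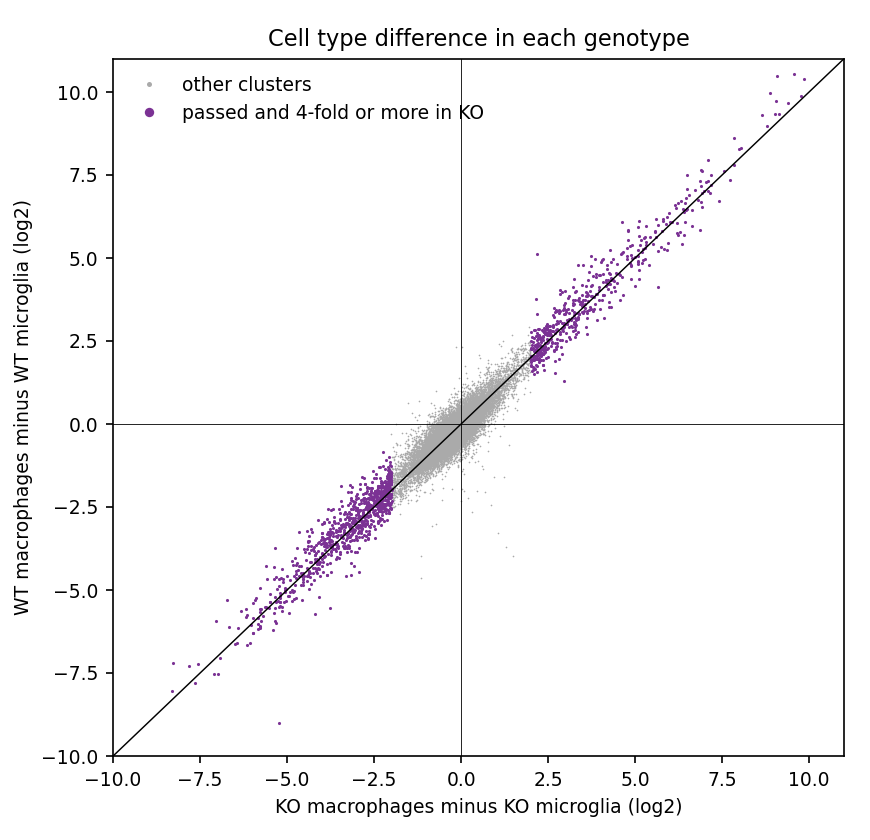
Macrophage minus microglia difference (log2) of each transcript cluster in WT mice (vertical axis) against that in KO mice (horizontal axis), with clusters called at 4-fold or more in KO in purple and the line of equal differences. All 1326 clusters with a called difference of 4-fold or more in KO keep its sign in WT, and the 2 axes come from separate arrays.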

How the data were processed

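The series has 30 Affymetrix Clariom HT mouse arrays, of which 12, 6 KO macrophages and 6 KO microglia, are described. Per the labels, each took 0.6 to 0.8 ng of RNA, with integrity numbers above 7.5. The authors deposited linear intensities made with RMA, per the submitters' processing notes. RMA subtracts a background, puts the arrays on a common scale and combines the probes of a cluster. The set of arrays normalized together, the version and the genome build are not given in the sources used here. From the intensities the authors deposited, log2 was taken with no pseudocount and no filter on low values. Of 22103 clusters 19508 had 1 gene symbol in the platform annotation, for 19479 genes, checked by gene number against RefSeq GRCm38.p6, and 2595 were not listed there.

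One mean per group of genotype and cell type was fitted to all 30 arrays (6 groups, 24 residual degrees of freedom) with limma 3.58.1 in R 4.3.3, and p-values were adjusted over all clusters by Benjamini-Hochberg, so every adjusted p is from limma. The WT difference and the difference between genotypes came from the same fit. The fitting code was first tested on simulated data.

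The arrays, the 45 gene lists (746 of 826 genes measured) and the rule for named genes were chosen with earlier results of these data known, and lists are described by counts and medians without a test. The rule named Trem1, the sort marker genes, Ccr2 and Cx3cr1, the 12 highest and 12 lowest differences among called, non-overlapping, single-symbol clusters with the brighter group mean at or above the median of cluster means, up to 4 members of each list by p, the 10 most alike, the 6 most variable per group and the 4 with the smallest p between genotypes. Predicted and clone-named models were not named. Other genes named, the gene pairs, the promoters printed and every motif but GAGGAA were chosen after values were seen. Promoters (250 bases before to 50 after the start, 300 in all) were found for 15681 of 19479 genes (80.5%).

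Alternatives were 3 other scalings (quantile, array median, 14 broadly expressed genes), array weights, a robust variance trend, no dimmest 25%, 1 cluster per gene, fits on only 12 or 21 arrays, a block for the replicate number, and arrays left out. Plots were made in Python 3.11.15 with matplotlib 3.10.9.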

Additional observations from a re-analysis of the deposited data

Results flagged for a closer look

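Single arrays stood far from the other 5 of their group by the Dixon test in 33 of 410 sets of a gene in a group (8.05%) and in 8 of 90 list means (8.89%), where chance gives about 1 in 20. No explanation was weighed, and values are log2 intensities.

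Among KO microglia, replicate 2 was highest for Anxa1 (7.59, the others 4.95 to 5.86), Mmp8 (7.37), Pgam1 (14.10) and the mean of the neutrophil list (8.81, the others 6.54 to 7.32), and lowest for Mki67 (13.52, the others 14.73 to 15.28). Replicate 5 was highest for the chemokine Ccl8 (10.14, the others 7.52 to 8.32), Ifitm3 (13.68), Nr1h3 (6.67) and the means of the border-associated macrophage (8.86) and chemokine (9.98) lists. Replicate 6 was lowest for C1qc (14.15, the others 15.05 to 15.42), Uqcrc1 (11.53), Tcf25 (12.25) and the dim astrocyte genes Slc1a3 (5.48) and Ntsr2 (6.58). Replicate 3 was highest for the means of the immediate early (11.61) and Toll-like receptor lists (10.83) and lowest for that of the NADPH oxidase list (12.32). Replicate 4 was highest for Pfkp (7.83) and lowest for the lectin Clec10a (7.64), and replicate 1 lowest for Cfb (5.68).

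Among KO macrophages, replicate 2 was lowest for S100a8 (6.73, the others 9.82 to 11.49), the neutrophil list mean (7.51, the others 8.18 to 8.38), Ccl6 (15.00) and Clec4d (14.98), and highest for P2ry12 (12.75, the others 11.98 to 12.21) and Ch25h (5.71). Replicate 3 was highest for Il1a (10.61, the others 7.80 to 8.45) and lowest for the myeloid receptor Cd300lf (14.70). Replicate 4 was highest for Ly6c2 (15.22, the others 14.12 to 14.32), Tyrobp (16.65) and the Fc gamma receptor mean (13.59), and lowest for Tlr7 (14.68) and P2rx1 (4.38). Replicate 1 was highest for Tlr3 (9.94) and the channel gene Kcnj8 (6.15) and lowest for the astrocyte gene Mlc1 (4.86). Replicate 5 was highest for Drg1 (12.60) and lowest for Wbp1l (15.08), and replicate 6 highest for the neuronal gene Syn1 (7.14) and the B cell gene Cd79a (5.39).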

How the results depend on the processing

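The count of called clusters, 9565, stayed between 8937 and 9588 with any 1 of the 21 macrophage and microglia arrays left out, with 2390 to 2638 higher, 6471 to 6957 lower and 481 to 493 higher and 814 to 859 lower by 4-fold or more. The WT arrays among the 21 enter this comparison only through the shared estimate of the spread. With 1 of the 12 KO arrays left out the count was always lower than 9565, at 8937 to 9221. Scaling moved the direction of calls: 4191 were higher and 4063 lower after quantile normalization, and 6109 and 3213 with each array centred on its median, against 2619 and 6946 as deposited. The other settings gave 10244 calls on only the 12 arrays, 10923 with array weights, 9582 with a robust variance trend, 7574 of 16577 without the dimmest 25%, 8487 of 19479 with 1 cluster per gene and 8656 without KO microglia replicates 2 and 4. Clusters called in the same direction in WT were 5798 to 6762 with 1 of them left out, and 0 clusters differed by genotype in each of these fits that held the WT arrays. Of 6549 pairs of a followed gene and a setting, 6421 kept their side of the threshold, and their direction where they were called. A change of sign in a gene called in neither fit was counted among these. A further 94 lost the call and 32 gained it. The 2 counted as reversed were Tyrobp (0.36, adjusted p = 0.00954) and the T cell gene Skap1 (0.01, adjusted p = 0.968), both with each array centred on its median. The titles do not say whether arrays with the same replicate number came from the same animals. Taken as deviations from their group means, same-numbered macrophage and microglia arrays correlated at -0.04 to 0.06, 1 of 6 best with its own number. With the replicate block 9644 clusters were called. Signal over background was not given, so the limit that dim probes set on a fold is unknown.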

Other observations

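The gene families below, some of whose members are also in the lists, were chosen after their values were seen and are given without a test. Among all clusters 11.8% were higher and 31.4% lower in KO macrophages, and by 4-fold or more 2.2% and 3.8%. Family counts with the intensities as deposited are to be read beside these shares. Family counts under another scaling belong beside those of all 22103 clusters under it. These were 6109 higher and 3213 lower under median centring, and 4191 and 4063 after quantile normalization. Of 49 replication-dependent core histone genes 44 were lower and 1 higher in KO macrophages, with a median difference of -2.51, 32 by 4-fold or more, and 43 or 44 were lower under each of the other scalings. H2bc11 stood at 5.93 in macrophages and 10.93 in microglia, a difference of -5.00 (SE 0.36, adjusted p = 2.31e-12). H2ac8 and H2ac12 differed by -4.80 and -3.79, and the higher gene was H3c1 (0.52, adjusted p = 0.0384). In WT the histone median was -2.26, with 43 of the 49 called in the same direction as in KO. Histone genes are close copies that can share probe signal. Of 8 genes of the Mcm helicase family, which opens replication origins, 7 were lower, with a median of -2.66. Of 34 kinesin motors 18 were lower and 1 higher, 15 lower under each other scaling, led by the spindle kinesins Kif15 (-5.14), Kif23 (-4.23) and Kif20b (-4.04).

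In the other direction 5 of 6 Ifitm genes, 6 of 8 Schlafen genes and 5 of 8 interferon regulatory factors were higher in macrophages and none lower. Ifitm1 stood at 16.05 against 9.13 and Ifitm6 differed by 6.90. Slfn4 and Slfn1, which are linked to myeloid activation, differed by 5.99 and 5.09, and Irf9, a partner of STAT proteins in interferon signalling, by 1.64. The guanylate-binding protein genes, another interferon-induced family, had 0 of 6 called by limma, with 2 and 3 higher under quantile normalization and median centring. Of 32 C-type lectin genes 13 were higher, 8 by 4-fold or more, and 7 lower, with 17 and 3 after quantile normalization. Of 18 Ms4a genes 6 were higher, including Ms4a8a (5.17), and 3 lower, with 9 and 0 under median centring. Of 12 annexins 6 were higher, including Anxa2 (4.17), and 2 lower, including Anxa3 (-1.75), with 7 and 1 under median centring. Of 16 S100 genes 7 were higher and 1 lower (7 and 0 under median centring), and 4 of 5 coronins, which control actin, were higher.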
